A study of Mus musculus with 2 samples.

Results

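The mural cells of brain vessels, pericytes and vascular smooth muscle cells, were followed through 10 genes chosen by symbol from the 19070 genes counted in the sections. The contractile genes were Acta2, Tagln, Myh11, Cnn1 and Des. The pericyte genes were Rgs5, Pdgfrb, Kcnj8, Abcc9 and Vtn. The class names are labels only, and the authors of the data list Rgs5 and Pdgfrb as markers of mural cells in general. All 10 symbols were found, each in 1 row. The sections came from male C57Bl6 mice, 3 months old at the time of impact, so the 28 days animal was older when its tissue was taken. They had no added transgene and no treatment beyond the surgery with its anaesthesia and pain relief. The injury was CCI, controlled cortical impact, in which a piston deforms the exposed cortex on 1 side of the head to model traumatic brain injury. There were 2 groups of 1 section each, 3 days and 28 days after CCI, and no section from a sham-operated or uninjured animal was analysed here, so the opposite side of the same section served as the reference. Transcripts were counted with Visium HD, in which gene probes bound to fixed and paraffin-embedded tissue are captured on a surface of barcoded squares and counted by unique molecular identifier (UMI).

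Arteries and arterioles are wrapped by smooth muscle cells that hold a contractile apparatus of smooth muscle actin, myosin and their regulators, while capillaries carry pericytes, flat cells that share the basement membrane with the endothelium and have little or none of that apparatus. Both cell types need platelet-derived growth factor signalling from the endothelium, and the transition between them along the vascular tree is gradual. Large vessels on the brain surface are also enclosed by fibroblasts of the meninges and the perivascular space.

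The injured side was set by the barcode column, below column 130 at 3 days and below column 240 at 28 days. The capture array cut the sections unevenly, so that the injured side held 10.0 mm² against 20.6 mm² on the opposite side at 3 days, and 12.7 against 13.8 mm² at 28 days. The line was straight, and the anatomical midline was not traced. Only bins with at least 100 UMIs were kept, so that the 3 days section held 119617 bins of 16 µm with a median of 851 UMIs, and the 28 days section held 103316 bins with a median of 610 UMIs. A bin can hold parts of several cells. The lesion zone was the patch of the injured side rich in UMIs of 6 phagocyte genes (Cd68, Lyz2, Ctsz, Lgals3, Cd52 and Laptm5). It held 7592 bins at 3 days and 13962 bins at 28 days, with medians of 497.5 and 398 UMIs per bin. Levels are given as CPM, the UMIs of a gene scaled to 1000000 UMIs in the region. All intervals are at 95% and cover counting error only, because 1 section per group leaves out the spread between animals, and neighbouring bins are not independent. No p-value was computed. A gene was called only by size, at least 2-fold apart between regions, and changes between the days were not tested.

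The promoters of smooth muscle genes often carry a CArG box, the binding site of serum response factor, so the window from 250 bases before to 50 bases after the RefSeq transcript start was searched in the GRCm38.p6 build, the build the submitters' processing notes call mm10. The pattern was CC, then 6 bases of which at least 5 are A or T, then GG, which reads the same on both strands. RefSeq windows were searched for 7 of the 10 genes, and the promoters of Tagln, Myh11 and Pdgfrb were not searched. The smooth muscle actin gene Acta2 held 2 such boxes, which start 84 and 34 bases before the transcript start, and its window on the minus strand of chr19:34255324-34255623 is shown with the boxes in capitals. The windows of the contractile gene Cnn1 (plus strand, chr9:22099003-22099302) and of the pericyte gene Rgs5 (plus strand, chr1:169655251-169655550) are set beside it as members in which no box was found.
Acta2: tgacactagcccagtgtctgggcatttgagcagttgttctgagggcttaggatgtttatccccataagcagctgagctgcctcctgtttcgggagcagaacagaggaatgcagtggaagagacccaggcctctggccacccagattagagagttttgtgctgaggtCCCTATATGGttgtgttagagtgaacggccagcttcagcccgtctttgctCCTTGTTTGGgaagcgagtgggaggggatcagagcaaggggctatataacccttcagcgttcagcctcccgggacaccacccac
Cnn1: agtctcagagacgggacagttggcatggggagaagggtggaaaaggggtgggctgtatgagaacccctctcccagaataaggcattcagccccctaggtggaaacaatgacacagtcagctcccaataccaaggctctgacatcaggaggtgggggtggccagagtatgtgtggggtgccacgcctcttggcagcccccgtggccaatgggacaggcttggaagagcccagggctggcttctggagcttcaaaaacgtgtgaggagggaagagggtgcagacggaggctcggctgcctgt
Rgs5: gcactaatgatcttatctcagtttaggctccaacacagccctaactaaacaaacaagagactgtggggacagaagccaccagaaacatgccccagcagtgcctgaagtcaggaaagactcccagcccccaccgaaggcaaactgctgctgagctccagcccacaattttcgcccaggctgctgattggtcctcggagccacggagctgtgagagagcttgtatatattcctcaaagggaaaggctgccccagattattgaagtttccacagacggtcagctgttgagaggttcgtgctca
The windows of Des, Kcnj8, Abcc9 and Vtn likewise held no match to these letters. Among the 32851 RefSeq promoter windows that were searched, which leave out some promoters, 9.98% held at least 1 box and 0.822% held at least 2. A match is a run of letters and not evidence of binding in this tissue.

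The sections held the vessel-associated cell types that the gene names refer to. Of 7 endothelial markers, 6 were in the files and all 6 had UMIs, and at 3 days their summed level was 360 CPM on the injured against 246 CPM on the opposite side, and at 28 days 262 against 248 CPM. The summed level of 7 fibroblast markers was 417.5 and 169.8 CPM at 3 days and 338 and 180.0 CPM at 28 days. The 4 arterial genes Gkn3, Bmx, Sema3g and Mgp, which are not particular to endothelium since arterial smooth muscle can also express Gkn3 and Mgp, summed to 165 and 82.2 CPM at 3 days and to 107 and 54.8 CPM at 28 days. Fibroblast and arterial transcripts were thus higher on the injured side of both sections, as was the sum of 6 choroid plexus markers (7197 against 1371 CPM at 3 days, 5097 against 2986 CPM at 28 days). In all 4 lists every marker in the files had UMIs on both sides. Excitatory neuron markers were lower on the injured side, at 427 against 1024 CPM at 3 days and 731 against 873 CPM at 28 days. Because the array cut the sections unevenly, the sides were not mirror regions, and ratios between them are not injury against a matched reference. The part that these cell types had in the values of the mural genes was not tested.

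All 5 contractile genes were higher on the injured side than on the opposite side of both sections. At 3 days many of these UMIs lay far from the lesion zone. The band 2000 to 4000 µm from it held 6045 of the 39116 bins of the injured side. In it lay 1423 of the 2771 Acta2, 663 of the 1278 Myh11 and 103 of the 158 Cnn1 UMIs of that side. For Tagln these were 1513 of 5405 UMIs and for Des 52 of 280. At 3 days Tagln, which encodes the actin-binding protein transgelin, differed most, 3.90-fold, and at 28 days the 5 genes lay within a narrow range of 1.67-fold to 1.79-fold. At 3 days 2 of 5 contractile genes, Tagln and Cnn1, passed 2-fold, beside 10.5% of the 16164 genes with at least 20 UMIs. At 28 days 0 of 5 did, beside 6.55% of 15640 genes. No member of either class was 2-fold lower, which held for 2.21% and 0.652% of all genes.

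Acta2, alpha smooth muscle actin, had 73.8 CPM (2771 UMIs) on the injured side at 3 days against 38.2 CPM (3169 UMIs) on the other, and 72.8 against 41.4 CPM at 28 days. Its log2 ratio of injured over opposite side was 0.95 (interval 0.87 to 1.02) at 3 days and 0.82 (0.73 to 0.90) at 28 days. The actin gene was below 2-fold at both times, with an interval that reached past 2-fold at 3 days. Tagln was at 144 CPM (5405 UMIs) against 36.9 CPM (3058 UMIs) at 3 days, a log2 ratio of 1.96 (1.90 to 2.03). In the later section Tagln had 61.9 against 36.7 CPM, with a ratio of 0.75 (0.66 to 0.85). The opposite side held the gene at almost the same level in both sections, and the injured side was above it in both, by more at 3 days. Myh11, the smooth muscle myosin heavy chain, was at 34.0 and 21.4 CPM at 3 days and at 42.0 and 25.1 CPM at 28 days. Its log2 ratios of 0.67 (0.57 to 0.78) and 0.74 (0.63 to 0.85) had overlapping intervals. Cnn1, which encodes the actin-binding regulator calponin, was rare, with 158 UMIs (4.21 CPM) against 104 UMIs (1.25 CPM) at 3 days and 112 UMIs (3.02 CPM) against 76 UMIs (1.68 CPM) at 28 days. Its ratio of 1.75 (1.38 to 2.12) at 3 days was the second highest of the 10 genes, and it was 0.84 (0.41 to 1.28) at 28 days. Des, the intermediate filament desmin, was at 7.45 and 4.22 CPM at 3 days and at 6.95 and 4.07 CPM at 28 days, with ratios of 0.82 (0.59 to 1.05) and 0.77 (0.49 to 1.05). In sums over a region, more cells of a type and more RNA per cell cannot be told apart.

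The pericyte genes differed less between the sides. At 3 days all 5 were higher on the injured side, by 1.25-fold to 1.41-fold, and at 28 days only Pdgfrb, Kcnj8 and Vtn had intervals above 0 while Rgs5 and Abcc9 had intervals that span 0. None of the 5 passed 2-fold in either section, beside the same 10.5% and 6.55% of all genes.

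Rgs5, a regulator of G protein signalling and the most widely used pericyte transcript, was at 109.5 CPM (4115 UMIs) on the injured and 85.3 CPM (7071 UMIs) on the opposite side at 3 days (log2 ratio 0.36, 0.31 to 0.42). Later its levels were 98.5 and 99.2 CPM, a ratio of -0.010 (-0.073 to 0.053). With 3656 and 4480 UMIs behind these levels, the counting interval was narrow, but it holds only for CPM summed over a whole side. Against the opposite side, Rgs5 was at 0.37 (0.26 to 0.47) in the lesion zone of that section. In the rest of its injured side it was at -0.12 (-0.19 to -0.052). Vtn, which encodes vitronectin, a basement membrane protein, was at 89.9 and 64.3 CPM at 3 days and at 85.02 and 74.6 CPM at 28 days, with ratios of 0.48 (0.42 to 0.55) and 0.19 (0.12 to 0.26). Pdgfrb, the receptor through which endothelial platelet-derived growth factor holds mural cells on the vessel, was at 20.5 and 14.5 CPM at 3 days and at 20.3 and 15.98 CPM at 28 days, with ratios of 0.50 (0.36 to 0.63) and 0.34 (0.19 to 0.49). It was the pericyte gene with the highest ratio in both sections. Kcnj8 and Abcc9 encode the pore and the sulfonylurea receptor of the ATP-sensitive potassium channel of mural cells and lie next to each other on chromosome 6 (chr6:142564837-142571614 and chr6:142587862-142702766, GRCm38.p6). Kcnj8 was at 6.18 and 4.93 CPM at 3 days and at 6.71 and 5.58 CPM at 28 days, with ratios of 0.32 (0.086 to 0.56) and 0.27 (0.0074 to 0.52). Abcc9 was at 11.6 and 9.11 CPM at 3 days and at 8.92 and 9.16 CPM at 28 days, with ratios of 0.35 (0.18 to 0.53) and -0.040 (-0.25 to 0.17). At 28 days Abcc9 too differed within the injured side. Against the opposite side it was at 0.60 (0.27 to 0.91) in the lesion zone and -0.25 (-0.49 to -0.016) in the rest.

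**Figure D1:**
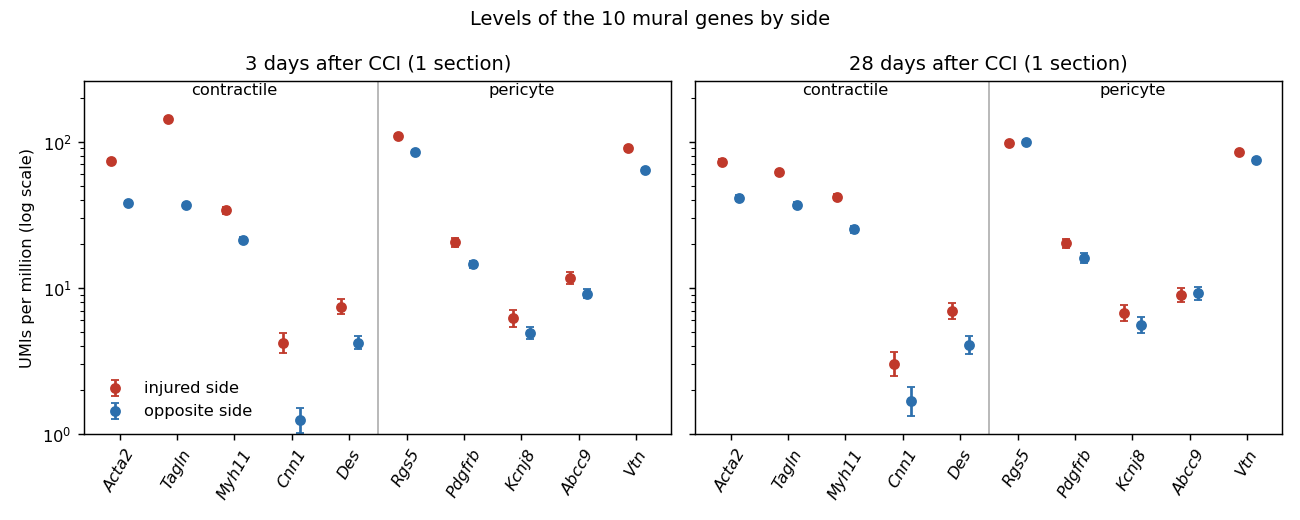
Level of each of the 10 mural genes on the injured (red) and the opposite side (blue) of the section at 3 days (left) and at 28 days (right), in CPM on a log axis. Bars are 95% counting intervals of 1 section, and levels of different genes should not be set against each other because probes differ in yield. The contractile genes sit higher on the injured side in both panels, Tagln at 3 days by the most (144 against 36.9 CPM). At 28 days Rgs5 and Abcc9 nearly coincide, and Pdgfrb, Kcnj8 and Vtn sit slightly higher on the injured side.

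As classes, the contractile genes had a median log2 ratio of 0.95 (interval 0.87 to 1.02, that of Acta2, the middle gene) at 3 days and 0.77 (0.49 to 1.05, Des) at 28 days. The pericyte genes had medians of 0.36 (0.31 to 0.42, Rgs5) and 0.19 (0.12 to 0.26, Vtn). The median over all genes tested was 0.14 at 3 days and 0.038 at 28 days. In each section the lowest contractile ratio (0.67 and 0.74) was above the highest pericyte ratio (0.50 and 0.34). Under TMM scaling, which shifted all ratios by 0.15 at 3 days and 0.049 at 28 days, the contractile median was 0.80 and the pericyte median 0.21 in the early section, and 0.72 and 0.14 in the late one. At 28 days a large contractile patch lay next to the dividing column. With the line 10 columns lower, so that the columns between passed to the opposite side, the contractile median was 0.48.

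Contractile and pericyte transcripts were laid out differently in the tissue. Contractile UMIs came in dense patches and pericyte UMIs were spread thinly: the 1% of bins richest in each class held 57.5% of all contractile UMIs but 20.9% of all pericyte UMIs at 3 days, and 69.7% and 23.2% at 28 days, against 4.62% and 4.82% of the UMIs of all genes. Sparse counting alone raises the share held by the richest bins, so the share of all genes is not a like baseline for either class. No contractile UMI was found in 94.2% and 96.2% of the bins, and no pericyte UMI in 86.5% and 88.2%. The highest count in a bin was 49 and 56 contractile UMIs, but 13 and 12 pericyte UMIs. Among single genes, 58.4% of the Acta2 UMIs at 3 days lay in bins with at least 3 of them.

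Connected bins with at least 3 contractile UMIs were joined to patches, and patches of at least 4 bins were counted as vessel-sized. At 3 days there were 42 of these on the injured side (4.19 per mm²) and 53 on the opposite side (2.57 per mm²). At 28 days there were 31 (2.45 per mm²) and 27 (1.96 per mm²). The patches were thus denser on the injured side of both sections, with more of a gap at 3 days. They covered 1.09% and 0.862% of the bins and held 57.3% and 63.2% of the contractile UMIs, and 4.65% and 3.48% of the pericyte UMIs. Because the patches were drawn from contractile UMIs, a high share of those was built in, and the 2 shares do not compare the classes. The largest was a patch of 221 bins on the injured side at 3 days. With the largest patch of each side left out, the contractile median ratio was 0.79 at 3 days and 1.05 at 28 days. With all vessel-sized patches left out, Acta2 was at a log2 ratio of 0.39, Myh11 at 0.33 and Cnn1 at 0.82 at 3 days, while Tagln was at 2.33. What remained of Tagln outside the patches was more one-sided than its total, and what remained of Acta2 and Myh11 less. This split was drawn from the same UMIs and describes the section only. At 28 days the same step left 0.48 for Acta2, 0.52 for Tagln, 0.47 for Myh11, 0.83 for Cnn1 and 0.58 for Des. The pericyte ratios moved by at most 0.095 under this step.

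**Figure D2:**
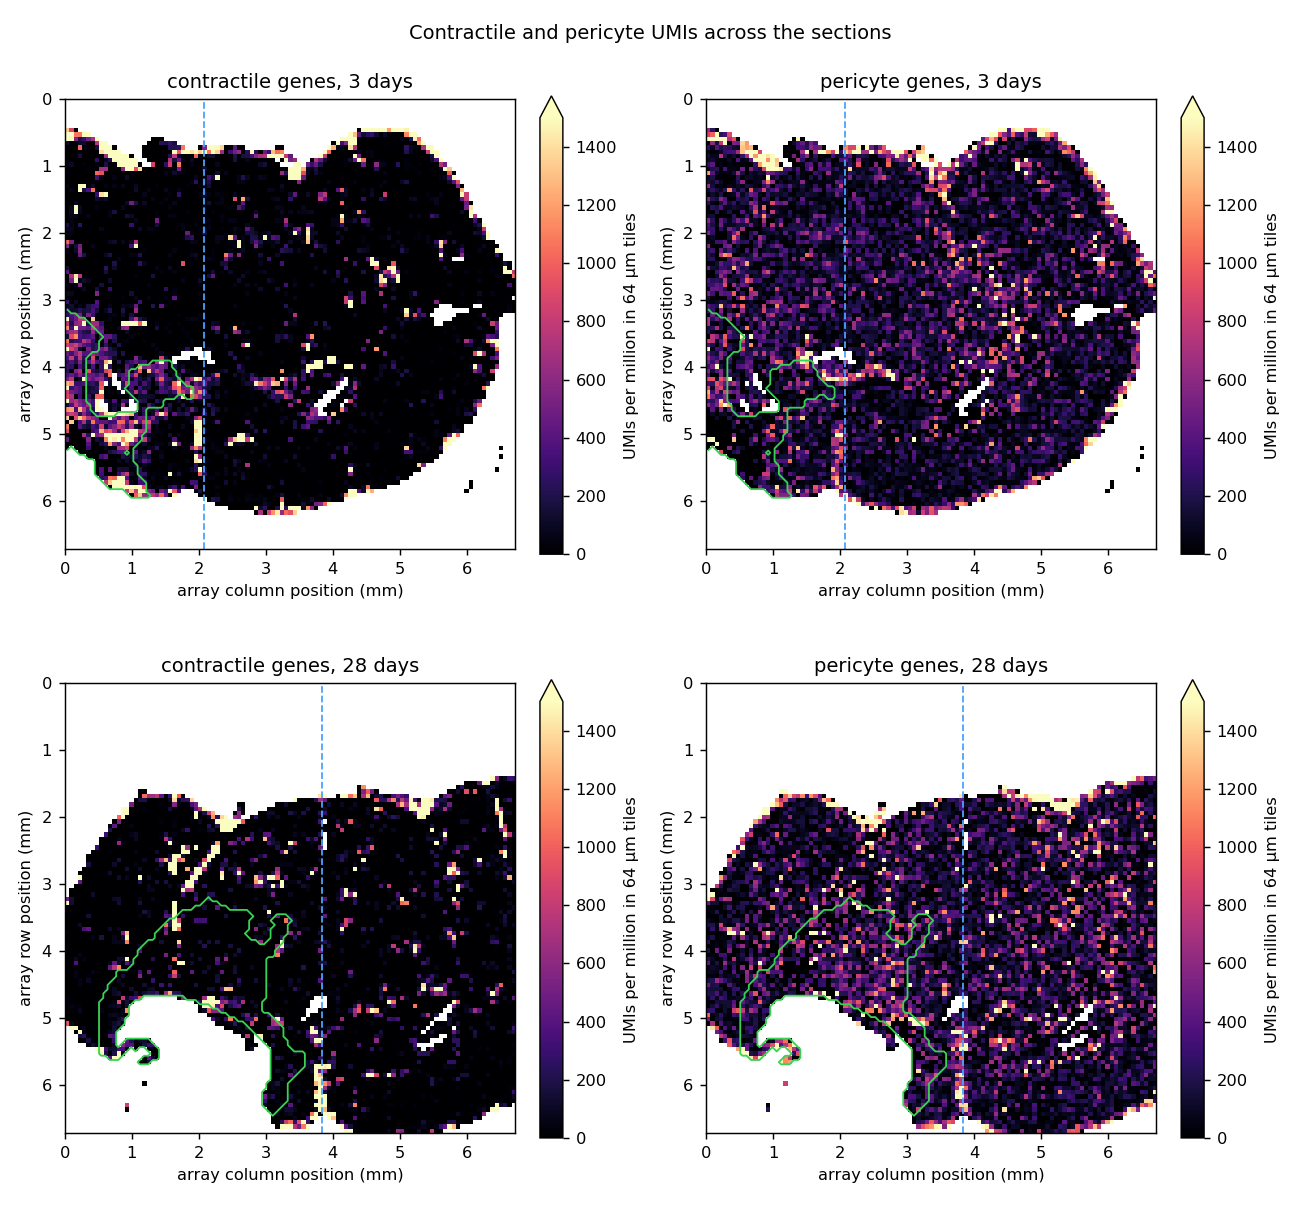
Summed UMIs of the 5 contractile genes (left) and of the 5 pericyte genes (right), as CPM, in 64 µm tiles of the section at 3 days (top) and at 28 days (bottom), with positions on the array in mm. The dashed line separates the injured side (left of it) from the opposite side, the green outline is the lesion zone, white is off tissue, and tiles above 1500 CPM have the same colour. Contractile signal stands in bright points and along the tissue edge, with a broad glow around the lesion at 3 days, and pericyte signal covers the whole tissue.

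Much of the contractile signal lay near the tissue edge, the outer border of the tissue or that of a hole in it. Within 100 µm of the edge, which held 9.07% of the bins and 7.3% of all UMIs at 3 days and 8.92% and 8.0% at 28 days, lay 39.7% and 40.6% of the contractile UMIs and 16.9% and 16.3% of the pericyte UMIs. Cnn1 had the highest share there, 56.5% and 64.9% of its UMIs, and Acta2 had 45.2% and 40.9%. Des had the lowest of the contractile genes (29.4% and 23.5%). Among pericyte genes Vtn had 24.1% and 25.3%, Pdgfrb 20.7% and 19.6%, Kcnj8 13.9% and 13.97%, Rgs5 11.4% and 9.2%, and Abcc9 10.8% and 9.9%. At this distance all 5 pericyte genes were above the share of all UMIs, Vtn and Pdgfrb by the most and Rgs5 and Abcc9 by the least. For Abcc9 at 28 days the interval (7.88% to 12.3%) included the share of all UMIs. Within 200 µm at 28 days Rgs5 was at that share (19.28% against 19.24%). Dcn, a matrix proteoglycan made by fibroblasts, had 36.7% and 59.9% of its UMIs near the edge, and Pecam1, an adhesion molecule of endothelial cells, 18.1% and 14.7%. With the edge left out, the contractile median ratio between the sides was 1.08 at 3 days and 0.93 at 28 days, so the difference between the sides was at least as large inside the tissue.

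Inside the lesion zone the contractile genes did not move as a class at 3 days. Tagln was at 503 CPM (2260 UMIs) in the zone and 95.1 CPM (3145 UMIs) in the rest of the injured side, a log2 ratio of 2.40 (2.32 to 2.48). Des was at 16.7 against 6.20 CPM, a ratio of 1.43 (1.03 to 1.82). Myh11 lay the other way, at 16.5 CPM (74 UMIs) against 36.4 CPM (1204 UMIs), a ratio of -1.14 (-1.503 to -0.805). Acta2 was at 77.7 and 73.2 CPM with a ratio of 0.085 (-0.081 to 0.25), which was -0.74 per bin and 1.02 against the opposite side. Cnn1, with 13 UMIs in the zone, had a ratio of -0.60 (-1.54 to 0.22). In this comparison 2 of 5 contractile genes were at least 2-fold higher, beside 14.2% of all genes, and 1 of 5 at least 2-fold lower, beside 11.1%.

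The direction of Myh11 depended on how the zone was drawn. With the wider zone, at the 95th percentile of the phagocyte share, it was 0.30, and without vessel-sized patches -0.23. Tagln was between 1.58 and 3.77 in all 6 alternatives run, and Des between 0.60 and 1.98. Both values at the low end are UMIs per bin, since the zone was less deeply counted than the rest.

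Among pericyte genes in the zone at 3 days, Pdgfrb was at 39.2 against 18.0 CPM, a log2 ratio of 1.12 (0.87 to 1.37), and was the only pericyte gene past 2-fold, 1 of 5 beside 14.2% of all genes. Per bin its ratio was 0.30, below 2-fold. Kcnj8 was at 10.0 against 5.65 CPM, a ratio of 0.82 (0.32 to 1.30). Rgs5 (117 and 108.6 CPM), Abcc9 (13.1 and 11.4 CPM) and Vtn (91.5 and 89.7 CPM) had intervals that span 0. At 28 days all 5 pericyte genes were higher in the zone and none passed 2-fold, beside 16.1% of all genes. Rgs5 was at 127.9 against 91.2 CPM, a ratio of 0.49 (0.38 to 0.60). Vtn was at 127 against 74.7 CPM (0.76, 0.65 to 0.87), Pdgfrb at 29.2 against 18.0 CPM (0.69, 0.46 to 0.93), Abcc9 at 13.9 against 7.70 CPM (0.85, 0.50 to 1.19) and Kcnj8 at 10.9 against 5.68 CPM (0.94, 0.53 to 1.33). Per bin instead of as CPM, the pericyte median at 28 days was 0.094, and at 3 days it was -0.63, so that the higher share of pericyte transcripts in the zone went with fewer UMIs of all genes per bin.

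At 28 days the contractile genes were level with the rest of the injured side or below it in the zone. Acta2 was at 57.6 against 76.6 CPM, a log2 ratio of -0.41 (-0.56 to -0.26), and Myh11 at 36.4 against 43.4 CPM, a ratio of -0.25 (-0.45 to -0.063). Tagln was at 61.1 and 62.1 CPM, a ratio of -0.023 (-0.17 to 0.13). These directions turned with the reference: against the opposite side Acta2 was at 0.48, Myh11 at 0.53 and Tagln at 0.74, and with the wider zone the contractile median was 0.86. No contractile gene was at least 2-fold lower in the zone at 28 days, beside 11.4% of all genes.

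Most Tagln UMIs of the lesion zone at 3 days lay apart from those of Acta2 and Myh11. Per Myh11 UMI there were 30.5 Tagln UMIs in the zone, 2.61 in the rest of the injured side and 1.73 on the opposite side, and at 28 days the same ratios were 1.68, 1.43 and 1.46. Per Acta2 UMI there were 6.48, 1.30 and 0.965 Tagln UMIs at 3 days and 1.06, 0.811 and 0.887 at 28 days. The share of Tagln UMIs that lay in a bin with Acta2 or Myh11 was 13.1% (11.7% to 14.5%) in the zone at 3 days, against 64.5% in the rest of the injured side and 66.9% on the opposite side, and it was 60.4%, 78.9% and 70.1% at 28 days. These shares were taken at the full depth of each bin, and sharing of bins rises with depth. At 3 days the median depth was 497.5 UMIs in the zone, 924 in the rest of the injured side and 871 on the opposite side. The part of depth in these shares was not tested. The zone at 3 days held 1370 bins with Tagln and neither Acta2 nor Myh11, but 115 bins in which it came with them. At 28 days these numbers were 163 and 105. Vessel-sized patches held 18.9% of the Tagln UMIs of the zone at 3 days, but 45.9% of its Myh11 and 51.6% of its Acta2 UMIs.

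The zone bins with Tagln alone did not look like those in which it came with Acta2 or Myh11. At 3 days the summed fibroblast markers were at 794 CPM in the former and 7557 CPM in the latter, the 4 arterial genes at 193 and 2120 CPM, and endothelial markers at 570 and 1710 CPM. Bins of the zone without Tagln had 431, 133.5 and 509 CPM of the same lists. In all 3 lists the bins with Tagln alone were thus between the other kinds and nearer to the bins without Tagln, though their fibroblast markers were well above those. Astrocyte markers were at 1480 CPM in bins with Tagln alone, 942 CPM in bins with Tagln and Acta2 or Myh11, and 1209 CPM in zone bins without Tagln, and phagocyte markers at 1399, 1658 and 1312 CPM. The median depth of the 3 kinds of bins was 613.5, 863 and 464 UMIs. The part of these cell types in the Tagln counts was not tested.

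With distance from the zone Tagln fell away in steps on the injured side at 3 days. It was at 152 CPM from 0 to 250 µm, 73.4 CPM from 250 to 500 µm, 36.3 CPM from 500 to 1000 µm and 17.7 CPM from 1000 to 2000 µm, and at 222 CPM in the farthest band, 2000 to 4000 µm. Myh11 over the same bands was at 13.7, 42.3, 24.98, 10.8 and 97.4 CPM, and Acta2 was at 77.7 CPM in the zone and at 38.8, 69.1, 41.8, 19.1 and 209 CPM over the bands. Tagln was not the only gene to fall: from the zone to the band of 1000 to 2000 µm, Acta2 went from 77.7 to 19.1 CPM, Des from 16.7 to 2.33 CPM, Pdgfrb from 39.2 to 11.0 CPM and Kcnj8 from 10.0 to 3.39 CPM, and so did Pecam1 (111.7 to 20.7 CPM) and Dcn (135.8 to 23.5 CPM). Dcn was highest not in the zone but from 0 to 250 µm, at 197 CPM. Rgs5 varied less, from 92.4 to 149 CPM over all bands, and Vtn was at 65.7 CPM from 1000 to 2000 µm and at 145.9 CPM in the farthest band. At 28 days Tagln was at 43.0, 83.9, 47.9 and 74.5 CPM in the 4 bands outside the zone and showed no such gradient.

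**Figure D3:**
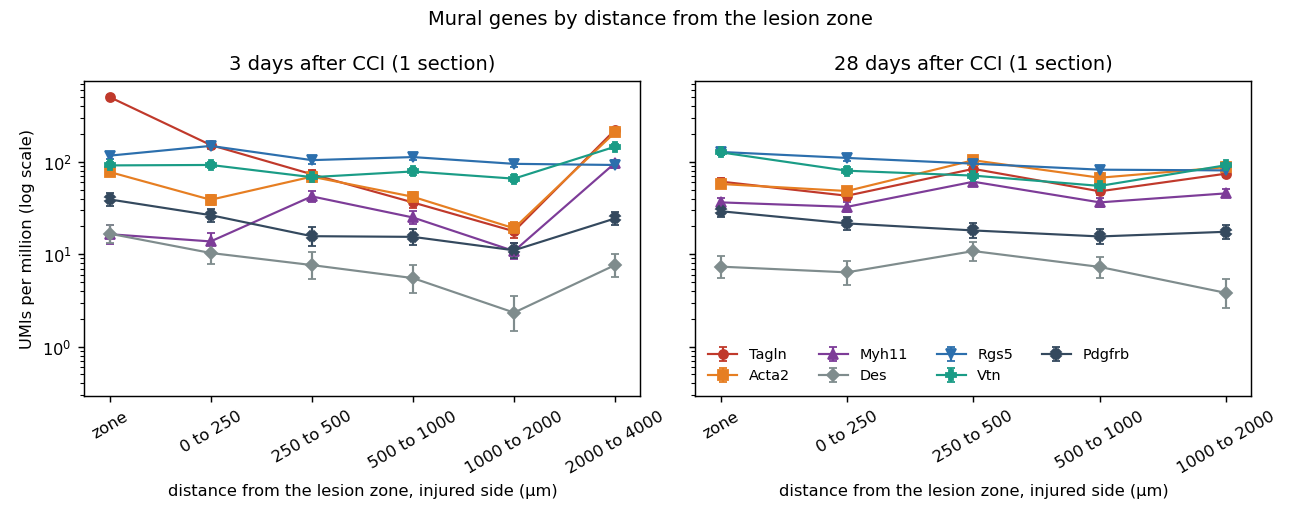
Level of 7 mural genes in the lesion zone and in bands of distance from it on the injured side, at 3 days (left) and at 28 days (right), in CPM on a log axis with 95% counting intervals. At 3 days Tagln descends from 503 CPM in the zone to 17.7 CPM before the farthest band, while Rgs5 stays between 92.4 and 149 CPM. In the right panel the lines of Tagln, Acta2 and Myh11 run side by side.

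To see which neighbours the mural transcripts had, each bin was thinned to 300 UMIs and the share of bins with a Pecam1 or a Dcn UMI was compared between bins with and without a mural UMI. On both sides of both sections, bins of either mural class held either partner more often than other bins did. In the lesion zone this was unclear for Pecam1 in contractile bins at 3 days and in pericyte bins at 28 days (1.98%, 1.11% to 3.24%, against 1.09%, 0.88% to 1.33%). The intervals of these ratios take the share in the other bins as fixed. On both sides of both sections contractile bins had a higher ratio to Dcn than pericyte bins had, but in the lesion zone at 3 days the ratios were 3.05 (2.35 to 3.88) for contractile and 3.14 (2.20 to 4.32) for pericyte bins. Thinning left out 13215 and 19385 shallower bins, those with fewer UMIs. As background, in bins with at least 2 UMIs of excitatory neuron markers a contractile UMI was found in 0.569% at 3 days and 0.358% at 28 days, against 3.35% and 2.49% of the other bins, at median depths before thinning of 1213 and 1117 against 934 and 731 UMIs. A pericyte UMI was found in 3.96% and 4.65% of the neuron bins, against 6.35% and 6.51% of the others. Pecam1 was found in 0.598% and 0.358% of the neuron bins, against 1.01% and 0.856% of the others. A large part of the pericyte bins cannot be told apart from the level in neuron bins. Those bins can hold parts of vessels too, so how much of that level was background was not tested.

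Pecam1 was found in 5.08% of contractile bins and 0.684% of other bins on the opposite side at 3 days, a ratio of 7.43 (5.90 to 9.22). On the injured side the shares were 4.86% and 1.26%, a ratio of 3.86 (3.13 to 4.70). In the later section it was 6.39 on the opposite and 10.2 on the injured side. The 2 sections thus had opposite orders of the sides. For pericyte bins the ratio was 3.50 (2.86 to 4.23) on the opposite and 2.72 (2.18 to 3.35) on the injured side at 3 days, and 3.16 and 2.60 at 28 days. In the lesion zone at 3 days 3.72% of contractile bins and 3.15% of other bins held Pecam1, a ratio of 1.18 (0.81 to 1.65), and the share in the other bins was higher there than on either side as a whole. Pecam1 itself was at 111.7 CPM in that zone against 30.3 CPM in the rest of the injured side. The summed endothelial markers, which include Pecam1, were less far apart in proportion, at 553 against 334 CPM. Which cells held Pecam1 in the zone was not tested.

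Dcn was found in 10.7% of contractile and 0.607% of other bins on the opposite side at 3 days, a ratio of 17.6 (15.1 to 20.3), and in 11.6% and 1.57% on the injured side, a ratio of 7.40 (6.51 to 8.36). In the later section these ratios were 19.2 and 12.1. Pericyte bins had 5.72 and 4.53 at 3 days, then 5.11 and 4.25. The ratio to Dcn was thus lower on the injured side in both sections, in which Dcn was also more common outside mural bins. In the lesion zone at 3 days, 25.2% of Acta2 bins held Dcn (26 of 103 bins), but 4.95% of Tagln bins (38 of 768 bins) and 2.72% of bins without Tagln did.

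Bins with a transcript of each class were the richest in Dcn. Over the whole section at 3 days 17.9% of them held Dcn, against 9.82% of bins with contractile UMIs alone, 3.87% of bins with pericyte UMIs alone and 0.730% of bins with neither, and at 28 days these shares were 13.4%, 8.92%, 2.47% and 0.540%. At 3 days the shares with Pecam1, in the same order, were 6.19%, 4.70%, 2.45% and 0.768%, and in the later section 6.30%, 5.93%, 1.83% and 0.640%. With distance from bins with at least 2 contractile UMIs, both partners dropped. On the opposite side at 3 days Pecam1 was at 8.13 times the mean of that side in the bins themselves, 1.70 times in the next bins (up to 16 µm) and 1.32 times from 16 to 32 µm. Dcn extended farther there, at 18.1, 7.74 and 3.13 times the mean over the same steps and 1.86 times from 32 to 48 µm. On the injured side at 3 days the drop of Pecam1 was slower, at 4.14, 2.24 and 1.38 times the mean of that side, and Dcn was at 7.96, 3.58 and 1.89 times. From 32 to 48 µm both were at 1.16 times. On the injured side at 28 days Dcn was at 3.14 and 1.50 times from 16 to 32 and from 32 to 48 µm, where Pecam1 was at 0.88 and 0.81 times, and on the opposite side Dcn was at 2.17 and 1.10 times against 0.95 and 0.81 times for Pecam1.

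**Figure D4:**
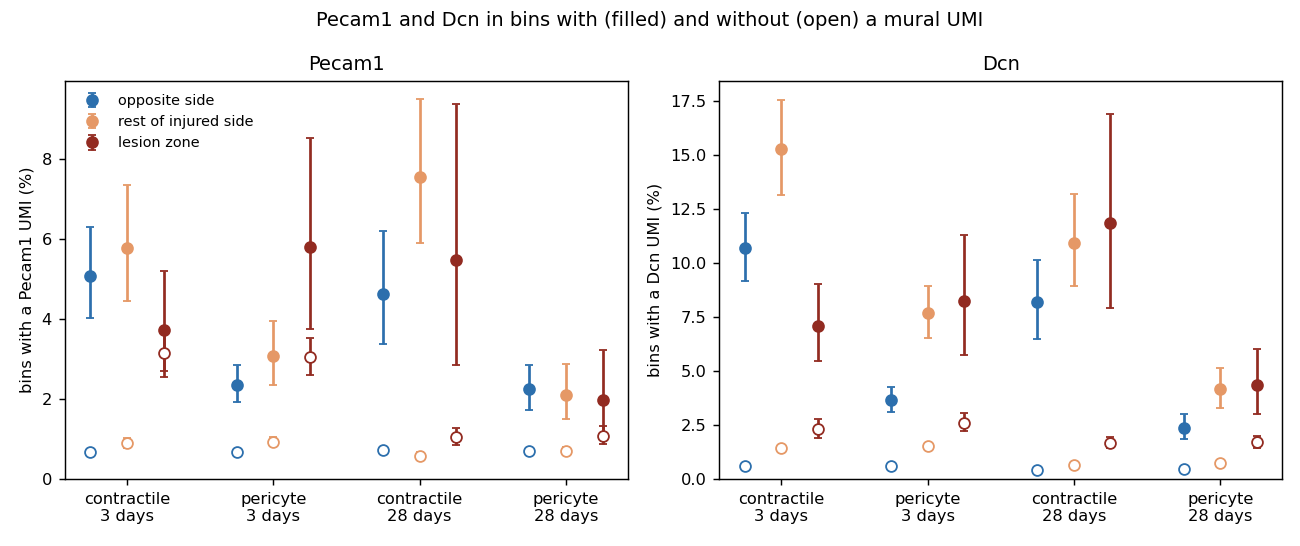
Share of bins, thinned to 300 UMIs, with a Pecam1 (left) or a Dcn UMI (right) among bins with a contractile or a pericyte UMI (filled) and among the other bins (open), by region and section, with nominal 95% intervals. Filled points lie above open points, with overlapping intervals in the lesion zone for Pecam1 in contractile bins at 3 days (3.72% and 3.15%) and in pericyte bins at 28 days (1.98% and 1.09%).

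Among themselves, the contractile genes shared bins far more than the pericyte genes did. On the opposite side at 3 days a Myh11 UMI was 71.2 times as frequent in Acta2 bins as in other bins, and a Tagln UMI 54.1 times. On the injured side the ratio stayed at 75.0 for Acta2 and Myh11 but was 14.2 for Acta2 and Tagln. Later this last ratio was 65.2 on the opposite and 57.0 on the injured side. Des was joined to Acta2 at 47.9 on the opposite and 27.0 on the injured side at 3 days. Cnn1 had ratios above 100 with Acta2 as the first gene in all 4 section sides, on 20 to 41 shared bins.

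Pericyte genes shared bins more loosely. Rgs5 and Vtn had ratios of 4.09 and 4.19 on the opposite and the injured side at 3 days and 4.42 and 3.67 at 28 days. The channel partners Kcnj8 and Abcc9 met over the whole section at a ratio of 11.5 at 3 days and 9.26 at 28 days, on 9 and 6 bins. Across the classes, pericyte genes differed in how often they were found with Acta2. In Acta2 bins over the whole section at 3 days, Pdgfrb was 6.62 and Vtn 5.48 times as frequent as elsewhere, Rgs5 1.94 times, Abcc9 0.80 times and Kcnj8 0.74 times. At 28 days these ratios were 4.497, 4.19, 1.94, 0.28 and 2.79. Those of Abcc9 and Kcnj8 rest on 1 to 7 shared bins.

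**Figure D5:**
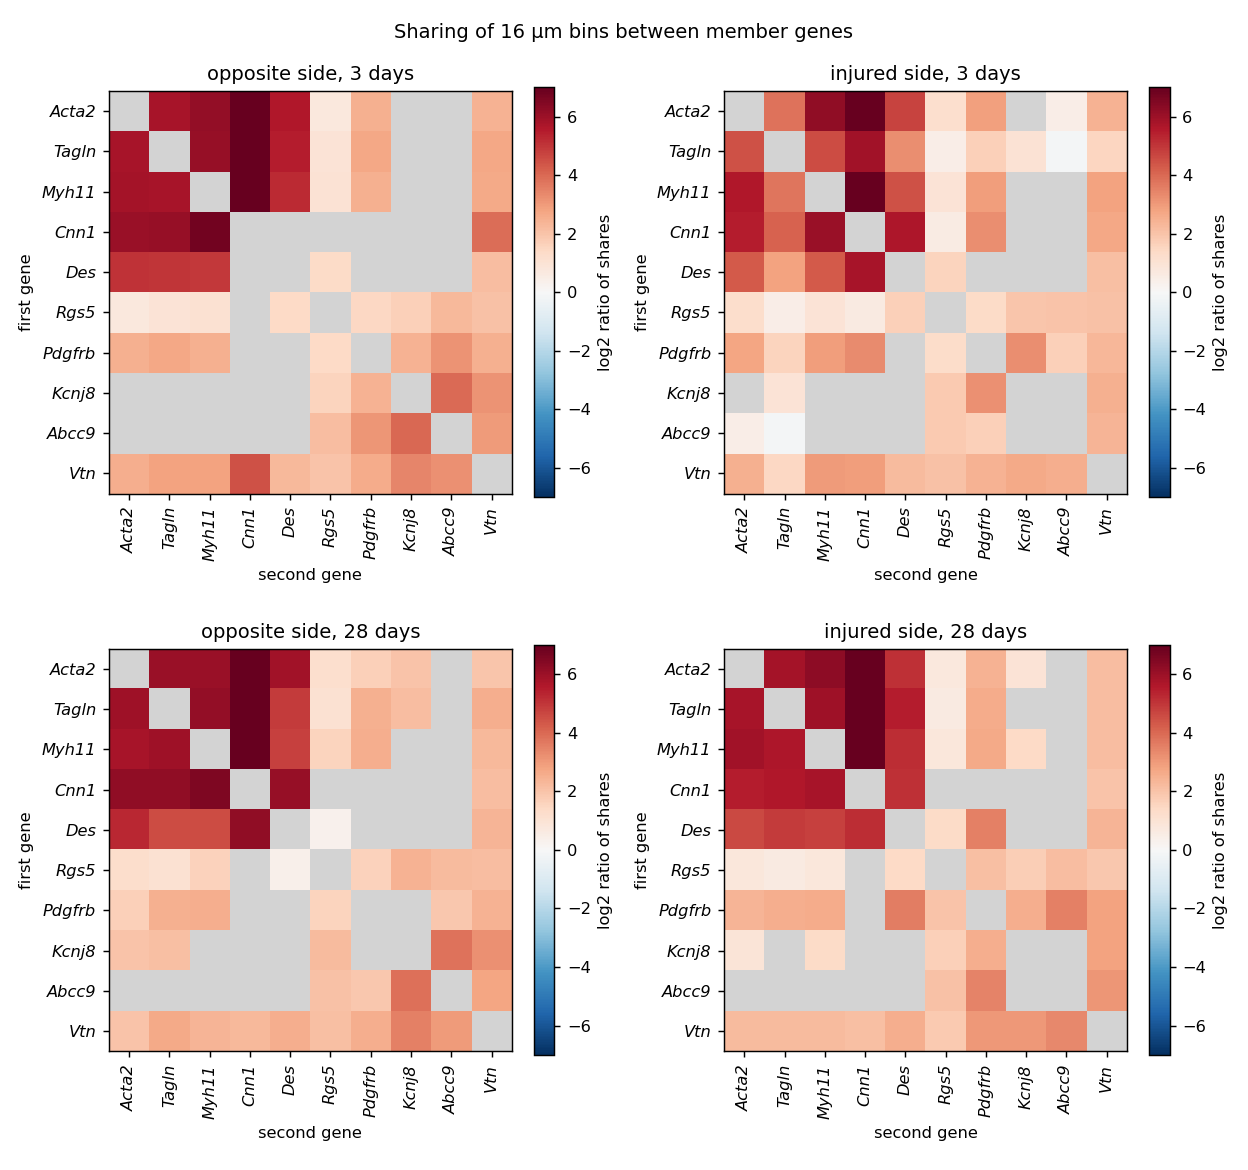
Log2 ratio of the share of bins with the second gene among bins with the first gene, over the share among bins without it, in bins thinned to 300 UMIs, for the opposite (left) and injured side (right) at 3 days (top) and 28 days (bottom). Grey marks the diagonal and pairs that share fewer than 3 bins, and the colour scale ends at 7. The contractile block in the upper left stands out in each panel, and its Tagln row and column are paler on the injured side at 3 days.

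In a wider list of mural genes, written with earlier results of these data known, the classes were nearly level. Of 21 further smooth muscle genes 4 were past 2-fold on the injured side in the early section and 0 in the late one, beside 10.5% and 6.55% of all genes, none was 2-fold lower, and the median ratios were 0.68 and 0.38. The 4 were Actg2 (smooth muscle gamma actin, 1.59), Crip1 (1.19), Mustn1 (1.08) and Sncg (1.08). Of 20 further pericyte genes in the files 2 passed 2-fold upwards in each section, beside the same shares of all genes, with medians of 0.63 and 0.35. S1pr3, a receptor of sphingosine 1-phosphate, had a ratio of 1.79 (1.68 to 1.89) at 3 days, from 47.2 against 13.7 CPM, and of 2.39 (2.20 to 2.58) at 28 days, from 33.2 against 6.35 CPM. Ifitm1 was at a ratio of 1.41 at 3 days, and Anpep, an aminopeptidase of pericytes, at 1.36 at 28 days. In the lesion zone at 3 days 4 of the 20 pericyte genes were at least 2-fold higher than in the rest of the injured side and 4 at least 2-fold lower (beside 14.2% and 11.1% of all genes), with a median of 0.30, and at 28 days 6 were higher and 0 lower (beside 16.1% and 11.4%), with a median of 0.64. Of the 21 smooth muscle genes 2 were higher and 4 lower in the zone at 3 days (median 0.20), and 1 was higher and 3 lower at 28 days (median -0.0021). The gene of the wider pericyte list with the highest ratio in the zone, S1pr3, reached 184.7 CPM at 3 days and 136.8 CPM at 28 days, against 28.5 and 7.59 CPM in the rest of the injured side. Which cells held it there was not tested, and its place on that list does not make them pericytes.

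The genes laid out most like the contractile genes, by Pearson correlation of log2 CPM (with 50 CPM added) across 1874 tiles of 8 by 8 bins at 3 days and 1616 tiles at 28 days, were smooth muscle and vessel wall genes. At 3 days they were Myl9 (0.75), Tpm2 (0.72), Flna (0.70), Bgn (0.66) and Mgp (0.66), and at 28 days Myl9 (0.78), Tpm2 (0.76), Mgp (0.74), Flna (0.63) and Mylk (0.63). Among those most like the pericyte genes were Slc6a20a (0.56), Igf2 (0.54), Col1a2 (0.52) and Ptgds (0.52) at 3 days, and Ptgds (0.49), Cald1 (0.45), Epas1 (0.44) and Slc6a20a (0.44) at 28 days. The sums of the contractile and the pericyte genes correlated with each other at 0.35 and 0.31. Tiles share a library and their depth with all genes in them, and tiles are not independent, so these values describe the sections only.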

How the data were processed

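Expression was measured with Visium HD on 1 section per time point. The deposited values are raw UMI counts per gene and 16 µm bin, which the authors made with Space Ranger (4.0.1 per the file headers, build mm10 per the submitters' processing notes) from probe reads, without normalization. The 10 members, the wider lists and the tests were chosen with earlier results of these data known. A minimum of 100 UMIs per bin removed 1.93% of 121967 bins at 3 days and 2.15% of 105589 bins at 28 days, from totals of 120615873 and 82422389 UMIs. Bins were mapped to sides by barcode column. UMIs were summed per region and scaled to CPM, and ratios were taken between regions of 1 section for genes with at least 20 UMIs in both together. Intervals are exact (Poisson for levels, conditional binomial for ratios, Clopper-Pearson for shares), with a class given by its median gene. A floor was not needed for any member. The lesion zone was made of 64 µm tiles with a phagocyte share, smoothed across 5 by 5 tiles, that exceeded the 99th percentile on the opposite side, joined to patches of 25 tiles or more. The edge was the border of tissue or of a hole of at least 25 bins, not the border of the array. For sharing of bins, each bin was thinned at random to 300 UMIs. Named genes were the members, Pecam1 and Dcn, genes of the wider lists at least 2-fold apart between sides, and the 5 genes most like each class, of which 1 is not reported here. Tiles for that likeness held at least 32 bins, and genes at least 2000 UMIs. The scripts were tested on simulated data. Alternatives were other minimums per bin, dividing columns, scalings (TMM of edgeR 4.0.16 with R 4.3.3, UMIs per bin), references, zone thresholds, edge bands and thinnings, and leaving out edges or patches. Ly6c1 and P2ry14 were not analysed here. The scripts ran under Python 3.11.15 with scipy 1.17.1, pandas 2.3.3, numpy 2.4.6 and matplotlib 3.10.9.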

Additional observations from a re-analysis of the deposited data

How the results depend on the processing

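The contractile class median between the sides was above 0 in all 20 alternatives run for it and the pericyte class median in all 20 of its own. At 3 days the contractile median of 0.95 was 0.80 with the line 10 columns higher, 0.85 per bin, 0.80 with TMM, 0.82 with equal columns, 1.08 without the edge, 0.79 without the largest patches and 0.80 without vessel-sized patches, and the pericyte median of 0.36 was 0.26 per bin and 0.21 with TMM. At 28 days the contractile median of 0.77 was 0.48 with the line 10 columns lower and 1.12 with equal columns, and the pericyte median of 0.19 was 0.028 per bin, 0.28 with equal columns and 0.090 without the edge. The zone medians were less stable. At 3 days the contractile median of 0.085 was 1.25 at the 95th percentile, -0.74 per bin, 0.43 without the edge, 1.21 against the opposite side and 1.65 without patches, and the pericyte median of 0.20 was 0.82 at the 95th percentile and -0.63 per bin. At 28 days the contractile median of -0.25 turned to 0.86 at the 95th percentile, 0.53 against the opposite side and 0.47 without patches and was -0.92 per bin, and the pericyte median of 0.76 was 0.92 at the 95th percentile and 0.094 per bin. Single genes with an interval off 0 whose zone ratio turned were Myh11 at 3 days (0.30 at the 95th percentile), Kcnj8 at 3 days (-0.0011 per bin), Acta2 at 28 days (0.86 at the 95th percentile, 0.48 against the opposite side, 0.16 without patches), Myh11 at 28 days (0.75 and 0.53 in the first of these) and Rgs5 at 28 days (-0.18 per bin). Genes whose interval spanned 0 changed sign too: at 3 days Acta2 (-0.74), Rgs5 (-0.72), Abcc9 (-0.63) and Vtn (-0.80) per bin and Cnn1 (up to 1.65 without patches), and at 28 days Des (-0.57 per bin), Tagln (up to 1.09) and Cnn1 (up to 1.65) at the 95th percentile. Within 200 µm of the edge lay 55.8% and 49.4% of contractile and 27.8% and 26.2% of pericyte UMIs, against 16.9% and 19.2% of all UMIs. Ratios of sharing with Pecam1 and Dcn stayed above 1 in all 80 alternatives. In unthinned bins Pecam1 with contractile genes was 2.87 (injured) and 3.78 (opposite) at 3 days and 6.45 and 3.94 at 28 days, Pecam1 with pericyte genes 2.84 (opposite, 3 days), Dcn with contractile genes 14.4 (opposite, 3 days) and Dcn with pericyte genes 5.31 and 5.50 (injured, 3 and 28 days). Thinned to 200 UMIs, Dcn with contractile genes was 13.6 and 13.0 (opposite, 3 and 28 days), Dcn with pericyte genes 3.35 (injured, 28 days) and Pecam1 with pericyte genes 2.40 (opposite, 28 days), and a second thinning gave 4.77 for Dcn with pericyte genes (opposite, 3 days). The alternatives without patches were chosen after seeing the data. The cause of these shifts was not tested. No paired analysis was possible because each group had 1 section. Depth limited Cnn1 most, then Des and Kcnj8.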

Other observations

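The zone bins with Tagln but without Acta2 and Myh11 were set against zone bins with none of the 3, a comparison chosen after the values of Tagln were seen and not tested. Genes with at least 500 UMIs in both kinds of bins together were ranked. At 3 days, among 2119 genes, Timp1 (log2 ratio 1.04, interval 0.83 to 1.25), an inhibitor of matrix metalloproteinases, was highest, followed by Tgm1 (0.94), Ccn1 (0.91), a matricellular protein, Igfbp2 (0.87), Acsbg1 (0.82) and Serpinh1 (0.76), a collagen chaperone. The astrocyte genes Fabp7 (0.70) and Aldh1l1 (0.67) were among the 10 highest. At 28 days, in 163 such bins and among 3728 genes, Ccn5 (2.45), Dcn (2.38), Col1a1 (2.27), a fibrillar collagen, Lcn2 (2.22) and Cd24a (2.22) led.

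Dcn, which was used as a neighbour of mural cells, was 3.95-fold higher on the injured side at 3 days (81.1 against 20.5 CPM) and 2.93-fold higher at 28 days (48.9 against 16.7 CPM). For Pecam1 the levels were 40.0 and 20.8 CPM in the early section and 24.8 and 21.9 CPM in the late one.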
